A study of Mus musculus with 10 samples.

Results

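The machinery that copies DNA once per cell cycle was examined in pancreatic islets of diabetic mice. The 45 genes considered code for the proteins that license and fire replication origins, copy and join the strands, supply nucleotides, rebuild chromatin behind the fork, and switch this programme on at the entry to S phase. They were chosen by name from knowledge of the process, with earlier results of these data known. Every probe whose current or older symbol was one of these genes was taken. All 45 genes were on the array, with 49 of its 23512 probes. Of these probes, 45 were found by the current symbol and 4 by the accession behind the older symbols Cdc45l, Orc1l, Orc2l and Orc6l. E2f2, Gins2, Lig1 and Rrm2 had 2 probes each, and each probe is given on its own.

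Islets came from db/db mice, which lack a working leptin receptor and become obese, and from lean db/+ mice, which carry one mutant copy of the same gene. Both groups were 9 weeks old and of the C57BLKS/J background, and each had 5 samples labelled as biological replicates. Per the labels, the db/db mice had at this age high blood glucose and insulin that was only modestly raised and below its level at an earlier age. The sources used here state neither sex nor the number of mice behind a replicate, so the p-values measure the spread between these samples. Each sample was labelled with Cy5 and hybridised beside a Cy3 reference, labelled as db/+ islet RNA of 9 weeks, after RNA amplification in 2 rounds. A value below is the log2 ratio of Cy5 over Cy3 for 1 probe on 1 array, so 0 means the same signal as the reference, and a log2 difference is the db/db mean minus the db/+ mean (n = 5 arrays each unless stated). A probe was called when limma's 2-sided p, after Benjamini-Hochberg adjustment over all 23138 probes tested, was under 0.05.

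DNA replication starts in G1, when the origin recognition complex, Cdc6 and Cdt1 load the ring-shaped MCM helicase onto DNA. In S phase the helicase is activated by Cdc45 and the GINS complex, and polymerases, the sliding clamp PCNA and its loader follow it. Transcription of many of these genes is driven by E2F factors, which the retinoblastoma protein holds back in resting cells. Adult islet beta cells divide rarely, and their number in obese mice is known to grow through cell division before diabetes advances. In a whole islet extract, fewer cells of a type and less RNA per cell cannot be told apart, and the dividing cells may be beta cells or any other cell of the islet.

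The replication genes did not move as one block in db/db islets. Of the 49 probes, 8 were higher in db/db islets (16.3%), 13 were lower (26.5%) and 28 were not called. Over all probes tested, 15.9% were called higher and 17.1% lower, or 33% in either direction, so the share of replication probes called higher was near that of the array and the share called lower was above it. Among the brighter probes of the array, with a mean Cy3 signal of at least the median of all probes, 7 of 30 replication probes were higher (23.3%) and 9 of 30 lower (30%), against 22.2% and 28.8% of all such probes, so in that range both shares were near the background. The median log2 difference of the 49 probes was 0.00, with a range of -1.33 to 1.73, against a median of -0.02 over all probes. The median size of the difference, without its sign, was 0.22 for the replication probes and 0.19 for all probes. The called probes belonged to 21 genes, and 24 genes had no called probe.

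**Figure D1:**
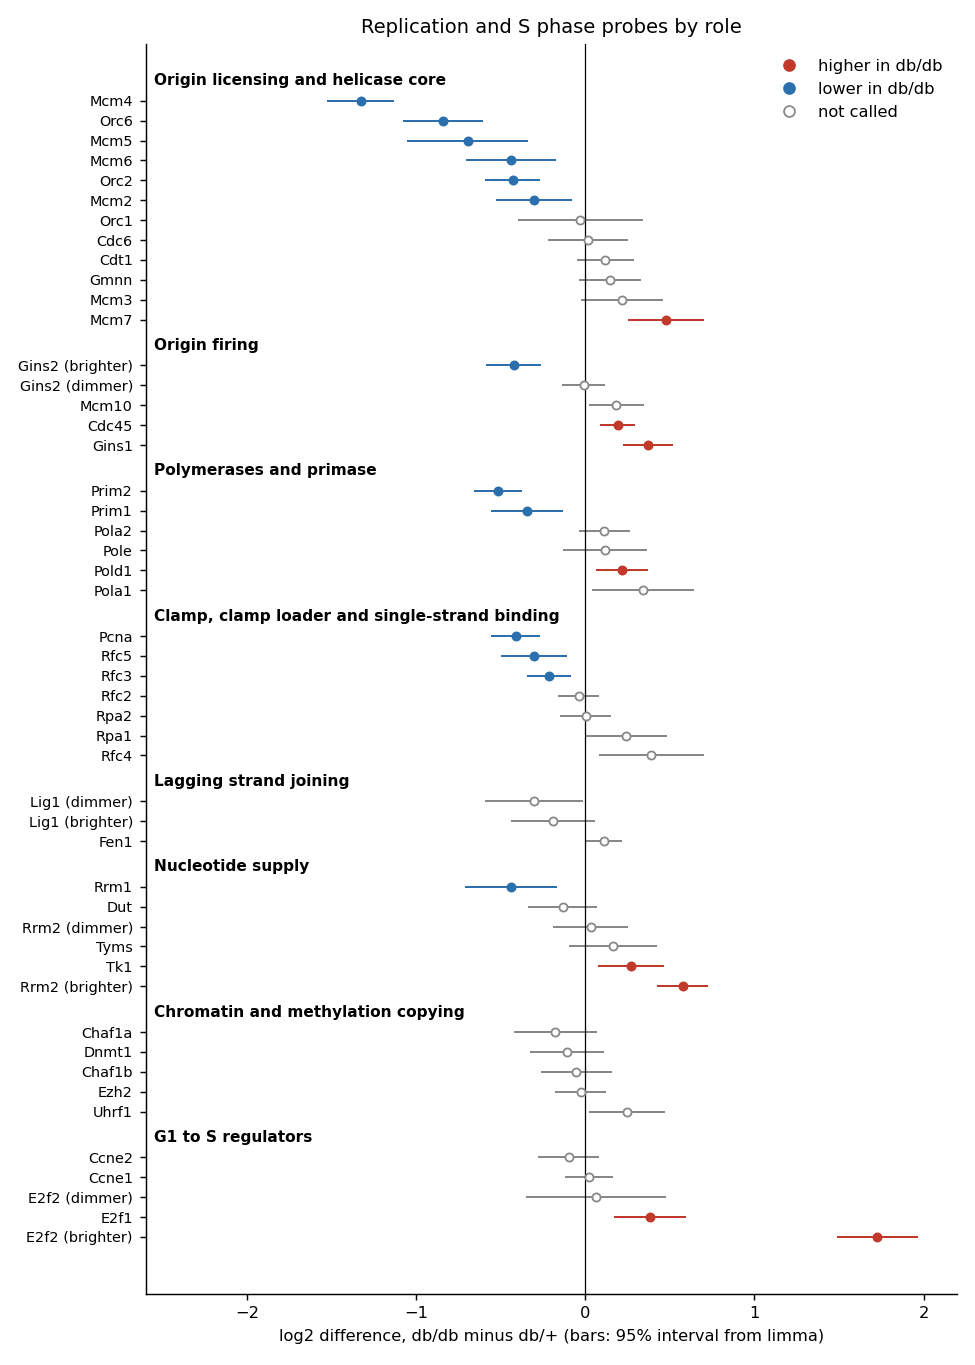
Log2 difference (db/db minus db/+) of each of the 49 replication and S phase probes, grouped by role, with 95% intervals from limma (n = 5 arrays per group for most probes). Mcm4 at -1.33 and the brighter E2f2 probe at 1.73 lie farthest from 0. The licensing group at the top, the largest with 12 probes, holds 6 of the 13 probes lower in db/db islets.

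Most of the called differences were small. Of the 21 called probes, 4 differed by at least 1.5-fold and 2 by at least 2-fold, while 13.1% of all called probes of the array did so by at least 2-fold. Of the 46 replication probes with a value on all 10 arrays, 6 had every db/db array above every db/+ array and 8 had every db/db array below, against 12.1% and 12.4% of all such probes on the array. The 7 called probes that stayed called under each of the alternatives that could test them were the brighter E2f2 probe, higher in db/db islets, and Mcm4, Prim2, Orc6, Pcna, the brighter Gins2 probe and Rrm1, lower in db/db islets. After quantile normalization of the ratios between arrays, 2 probes were higher and 6 lower in db/db islets, and all 8 were among the 21 called here. That step gives all arrays the same spread of ratios. Before it, the SD over all probes was 0.476 to 0.536 on db/db arrays and 0.193 to 0.305 on db/+ arrays. A call lost there is therefore no sign by itself of a weak difference, and the part of the unequal spread was not tested.

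The authors' own p-value, which sets the channels of 1 array against each other, was under 0.01 for 9 to 11 replication probes on each db/db array and for 0 to 1 on each db/+ array, per the authors' deposited table. In the authors' deposited table these shares were 18.4% to 22.4% on db/db arrays, against 14.1% to 19.1% of all probes there, and 0% to 2.13% on db/+ arrays, against 0.624% to 2.58% of all probes. Of the 21 called probes, 4 passed that mark of the authors' deposited table on all 5 db/db arrays (the brighter E2f2 and Rrm2 probes, Mcm4 and Orc6), and 7 passed it on none, Pcna among them. The Cy3 channel, labelled as the same control on all arrays, was compared in the same way as a background: limma called 0 replication probes there, 4 had an unadjusted p under 0.05 (Gmnn, Rpa1 and the dimmer E2f2 and Rrm2 probes), and none of these 4 was called between db/db and db/+ islets. Over all probes, 0.0216% were called in the Cy3 channel and 4.81% had an unadjusted p under 0.05.

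Origin licensing, the largest role by number of probes, held the most probes lower in db/db islets, with 6 of 12 lower, 1 higher and 5 not called. Over all probes 17.1% were lower and 15.9% higher, and more among brighter probes. No role was tested against these shares, which are also the background for the roles below. Of the 6 lower probes only Mcm4 and Orc6 stayed called under every alternative. Mcm4, a subunit of the MCM helicase, had log2 ratios of -1.10, -1.35, -1.32, -1.12 and -1.16 in db/db islets, against -0.09, 0.18, -0.02, 0.21 and 0.31 in db/+ islets. All db/db arrays lay far below all db/+ arrays, and no other replication probe fell as far. The difference was -1.33 ± 0.09 (SE), 2.51-fold lower in db/db islets (adjusted p = 6.65e-06), and the Cy5 signal averaged 2.31 ± 0.22 units in db/db islets and 5.81 ± 0.69 units in db/+ islets (SD). Orc6, the smallest subunit of the origin recognition complex, had log2 ratios of -0.97, -1.21, -0.58, -0.82 and -0.86 in db/db islets, against -0.11, -0.10, -0.02, 0.10 and -0.11 in db/+ islets. The groups did not overlap, and db/db replicate 3 was the nearest to the db/+ arrays. Its difference was -0.84 ± 0.10 (SE), 1.79-fold lower in db/db islets (adjusted p = 0.000253), and its Cy5 signal averaged 1.67 ± 0.21 units in db/db islets and 3.00 ± 0.13 units in db/+ islets (SD). Orc2, another subunit of the same complex, had -0.35, -0.72, -0.58, -0.48 and -0.55 in db/db islets, against -0.27, -0.09, -0.06, -0.02 and -0.10 in db/+ islets. Here db/db replicate 1 came close to db/+ replicate 1, without overlap. The difference was -0.43 ± 0.07 (SE), 1.35-fold lower in db/db islets (adjusted p = 0.00157), and it was not called after quantile normalization (adjusted p = 0.154).

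Mcm5, the helicase subunit beside Mcm2 in the ring, had log2 ratios of -0.28, -0.28, -0.94, -0.85 and -0.90 in db/db islets, against 0.22, 0.04, -0.19, -0.03 and 0.18 in db/+ islets. The db/db arrays split into 3 at -0.85 or lower and 2 at -0.28, and all were below the lowest db/+ array. The difference was -0.70 ± 0.16 (SE), 1.62-fold lower in db/db islets (adjusted p = 0.00795), and quantile normalization ended the call (adjusted p = 0.0608). Mcm6 had -0.51, -0.36, 0, -0.22 and -0.29 in db/db islets, against 0.13, -0.14, 0.14, 0.42 and 0.26 in db/+ islets, and the groups overlapped, since db/db replicate 3 lay above db/+ replicate 2. Its difference was -0.44 ± 0.12 (SE), 1.36-fold lower in db/db islets (adjusted p = 0.0177), not called after quantile normalization (adjusted p = 0.0863). The mean Cy3 signal of Mcm6 was 0.098 units, where 1 rounding step of the intensities (0.01 units) is worth 0.14 on the log2 scale. Mcm2 had -0.32, -0.37, 0.09, -0.09 and -0.31 in db/db islets, against -0.08, 0.08, 0.09, 0.19 and 0.26 in db/+ islets, with db/db replicate 3 inside the db/+ range and the other 4 db/db arrays below it. Its difference was -0.31 ± 0.10 (SE), 1.24-fold lower in db/db islets (adjusted p = 0.0414), and the call was lost on leaving out db/db replicate 1, 2 or 5 or db/+ replicate 2, 3, 4 or 5, with adjusted p of 0.0682 to 0.0965. It was also lost after quantile normalization (adjusted p = 0.114), with loess within arrays (adjusted p = 0.0731) and with array weights (adjusted p = 0.0535).

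Mcm7, a subunit of the same ring as Mcm2, Mcm4, Mcm5 and Mcm6, was higher in db/db islets. Its log2 ratios were 0.18, 0.43, 0.73, 0.52 and 0.30 in db/db islets, against 0.09, -0.13, 0.04, -0.10 and -0.14 in db/+ islets. The groups did not overlap, and the db/db arrays were spread more widely than the db/+ arrays. The difference was 0.48 ± 0.10 (SE), 1.39-fold higher in db/db islets (adjusted p = 0.00526), and the call was lost with the Cy5 signal used without the reference (adjusted p = 0.112). Mcm3 had 0.48, 0.19, 0.40, 0.38 and 0.11 in db/db islets, against 0.42, 0.15, -0.09, 0.05 and -0.04 in db/+ islets, and it was not called, at 0.22 ± 0.11 (SE, adjusted p = 0.161). Its highest db/+ array, replicate 1, lay above 4 of the 5 db/db arrays, and without that array it was called (adjusted p = 0.0327).

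The licensing factors and their inhibitor were not called. Cdt1, which brings the helicase to origins, had 0.36, 0.26, 0.22, 0.17 and 0.46 in db/db islets, against 0.15, 0.17, 0.04, 0.39 and 0.13 in db/+ islets, a difference of 0.12 ± 0.08 (SE, adjusted p = 0.265). Gmnn, which codes for geminin, the inhibitor of Cdt1, had 0.36, 0.06, 0.29, 0.18 and 0.20 in db/db islets, against 0.20, 0.25, -0.11, 0.02 and 0 in db/+ islets, a difference of 0.15 ± 0.08 (SE, adjusted p = 0.213). The groups overlapped for both, and the 95% intervals of the differences were -0.05 to 0.29 for Cdt1 and -0.04 to 0.33 for Gmnn. Cdc6, which loads the helicase with Cdt1, differed by 0.02 (95% interval -0.22 to 0.25) and Orc1, the largest subunit of the origin recognition complex, by -0.03 (95% interval -0.40 to 0.34). The probes of Cdc6 and Orc1 were dim, with mean Cy3 signals of 0.099 and 0.059 units. There 1 rounding step is worth 0.14 and 0.23 on the log2 scale.

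**Figure D2:**
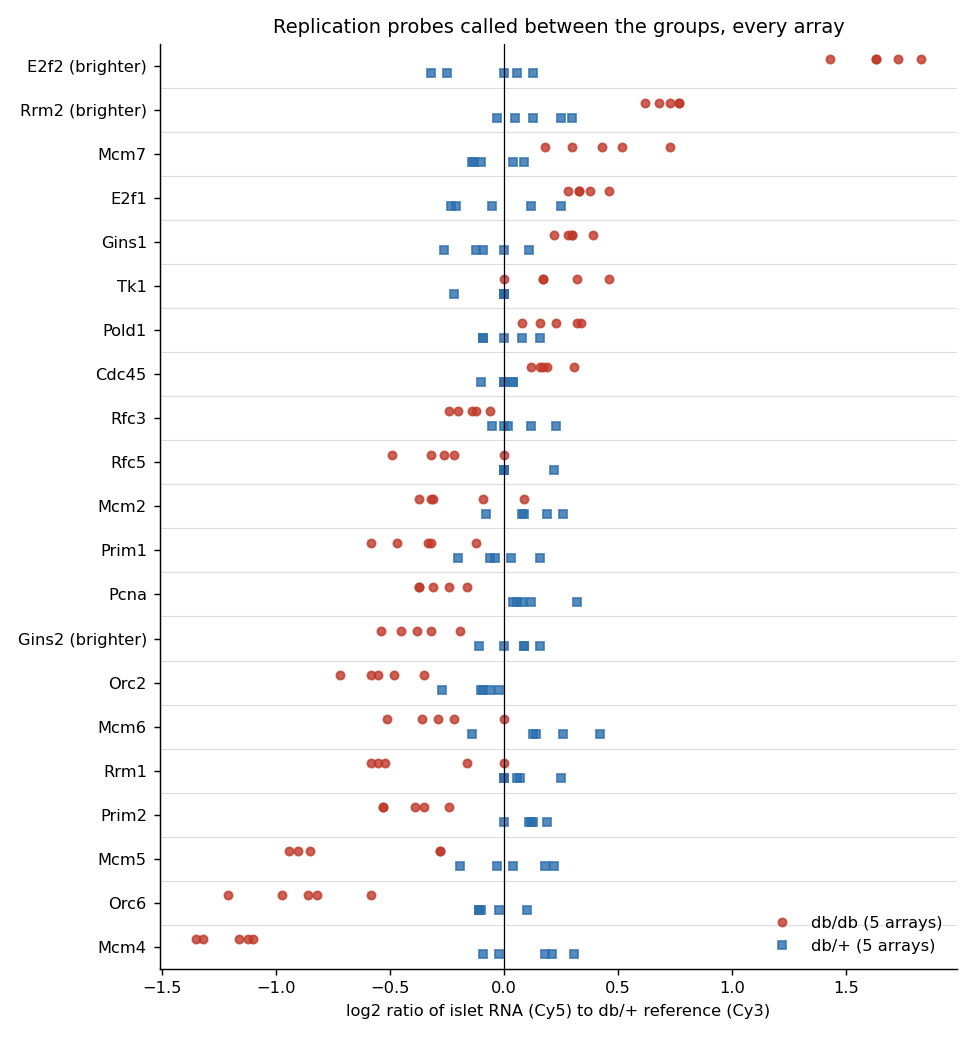
Log2 ratio of Cy5 over Cy3 on each of the 5 db/db and 5 db/+ arrays for the called replication probes, 1 point per array. The db/db points of E2f2 (brighter probe) lie at 1.43 or above and those of Mcm4 at -1.10 or below, while the db/+ points lie around 0.

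Genes of origin firing, which turns the loaded helicase on, were split. Gins1 and Gins2 code for subunits of the same 4-part GINS complex. Gins1 had log2 ratios of 0.28, 0.39, 0.30, 0.30 and 0.22 in db/db islets, against 0.11, -0.12, -0.26, -0.09 and 0 in db/+ islets, with no db/db array as low as the highest db/+ array. Its difference was 0.37 ± 0.07 (SE), 1.29-fold higher in db/db islets (adjusted p = 0.00214), and it was not called after quantile normalization (adjusted p = 0.0727) or with the Cy5 signal alone (adjusted p = 0.0834). The brighter Gins2 probe had -0.54, -0.38, -0.19, -0.32 and -0.45 in db/db islets, against 0.09, 0.16, 0, -0.11 and 0.09 in db/+ islets, with all db/db arrays below all db/+ arrays. Its difference was -0.42 ± 0.07 (SE), 1.34-fold lower in db/db islets (adjusted p = 0.00172). Mean Cy3 signals of Gins1 and this Gins2 probe were 0.13 and 0.15 units, under the array median of 0.1575. There 1 rounding step (0.01 units) is worth 0.11 and 0.09 on the log2 scale. Their Cy5 signals overlapped between the groups. Gins1 had 0.14 to 0.17 units in db/db and 0.10 to 0.15 units in db/+ islets. This Gins2 probe had 0.10 to 0.14 and 0.13 to 0.19 units. The dimmer Gins2 probe had 0, 0, 0, 0 and 0.17 in db/db islets, against 0.22, 0, 0, 0 and 0 in db/+ islets, and was not called, at -0.01 ± 0.06 (SE, adjusted p = 0.922). Its mean Cy3 signal was 0.066 units, where 1 rounding step of the deposited intensities, 0.01 units, is worth 0.20 on the log2 scale, so most of its ratios were exactly 0.

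Cdc45, which joins GINS and the helicase ring in the active form, had log2 ratios of 0.16, 0.19, 0.31, 0.12 and 0.17 in db/db islets, against 0, 0.04, 0.04, 0 and -0.10 in db/+ islets. All db/db arrays were above all db/+ arrays, by a small margin. The difference was 0.19 ± 0.05 (SE), 1.14-fold higher in db/db islets (adjusted p = 0.0102), and it was not called after quantile normalization (adjusted p = 0.243) or with the Cy5 signal alone (adjusted p = 0.159). Mcm10, which acts with them at origins, was not called, at 0.18 ± 0.07 (SE, adjusted p = 0.0844), but was called with array weights (adjusted p = 0.0314) and with the replicate number as a block (adjusted p = 0.0134).

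Among polymerases and primase, both primase subunits were lower in db/db islets while polymerase genes were higher or not called. Prim2, the large primase subunit, had log2 ratios of -0.39, -0.53, -0.24, -0.35 and -0.53 in db/db islets, against 0.11, 0.19, 0.12, 0 and 0.13 in db/+ islets. The ratios of the groups did not overlap, and the difference was -0.52 ± 0.06 (SE), 1.43-fold lower in db/db islets (adjusted p = 0.000237). The mean Cy3 signal of Prim2 was 0.132 units, where 1 rounding step is worth 0.11 on the log2 scale. Its Cy5 signals overlapped, at 0.09 to 0.13 units in db/db and 0.12 to 0.16 units in db/+ islets. Prim1, the catalytic subunit that makes RNA primers, had -0.12, -0.47, -0.33, -0.58 and -0.32 in db/db islets, against 0.16, 0.03, -0.06, -0.04 and -0.20 in db/+ islets. Here db/db replicate 1 lay above db/+ replicate 5, so the groups overlapped. Its difference was -0.35 ± 0.09 (SE), 1.27-fold lower in db/db islets (adjusted p = 0.019), not called after quantile normalization (adjusted p = 0.279) or with the Cy5 signal alone (adjusted p = 0.152).

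Pold1, the catalytic subunit of polymerase delta, which copies the lagging strand, was higher in db/db islets, with log2 ratios of 0.08 to 0.34 on db/db arrays, against -0.09 to 0.16 on db/+ arrays. The groups overlapped. The difference was 0.22 ± 0.07 (SE), 1.16-fold higher in db/db islets (adjusted p = 0.0374), and the call was lost on leaving out db/db replicate 1, 3 or 4 or db/+ replicate 3, 4 or 5 (adjusted p of 0.0671 to 0.0866), after quantile normalization (adjusted p = 0.473, difference 0.12) and with the Cy5 signal alone (adjusted p = 0.181). Pola1, the catalytic subunit of polymerase alpha, ranged from 0.35 to 0.58 on db/db arrays, against -0.11 to 0.64 on db/+ arrays, and was not called (0.34 ± 0.13 SE, adjusted p = 0.0839). The one db/+ array above the db/db range was replicate 1, and without it Pola1 was called (adjusted p = 0.00124). Pola1 was also called with array weights (adjusted p = 0.0466) and by the exact permutation test of each probe (p = 0.0476, not adjusted). Pola2, the second subunit of polymerase alpha, differed by 0.11 ± 0.07 (SE, adjusted p = 0.241) and was called only on leaving out db/db replicate 1 (adjusted p = 0.0499). Pole, the catalytic subunit of polymerase epsilon, which copies the leading strand, had a mean Cy3 signal of 0.029 units and was dim in every sample, and its difference of 0.12 ± 0.11 (SE, adjusted p = 0.46) came from 1 db/+ array, the other 9 ratios being 0.

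The sliding clamp and 2 subunits of its loader were lower in db/db islets, and no gene of this group was called higher. Pcna, the ring that tethers polymerases to DNA, had log2 ratios of -0.16, -0.37, -0.24, -0.31 and -0.37 in db/db islets, against 0.12, 0.32, 0.06, 0.04 and 0.08 in db/+ islets. All 5 db/db arrays were below 0 and all 5 db/+ arrays above it. The difference was -0.41 ± 0.06 (SE), 1.33-fold lower in db/db islets (adjusted p = 0.000935), and the Cy5 signal was 8.51 to 9.51 units on db/db arrays and 10.57 to 13.02 units on db/+ arrays. Rfc3, a subunit of the clamp loader, had -0.14, -0.20, -0.12, -0.24 and -0.06 in db/db islets, against -0.05, 0.23, 0, 0.02 and 0.12 in db/+ islets. The db/db replicate 5 lay just below db/+ replicate 1, and the groups did not overlap. Its difference was -0.21 ± 0.06 (SE), 1.16-fold lower in db/db islets (adjusted p = 0.019), not called after quantile normalization (adjusted p = 0.236), with loess within arrays (adjusted p = 0.107) or with the Cy5 signal alone (adjusted p = 0.0813).

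Rfc5, another loader subunit, was between -0.49 and 0 on db/db arrays and between 0 and 0.22 on db/+ arrays. The groups met at 0, and its mean Cy3 signal was 0.063 units, where 1 rounding step is worth 0.21 on the log2 scale. The difference was -0.30 ± 0.09 (SE), 1.23-fold lower in db/db islets (adjusted p = 0.0238), and it was not called without db/db replicate 4 (adjusted p = 0.0532) or db/+ replicate 4 (adjusted p = 0.0523), nor after quantile normalization (adjusted p = 0.0784). Rfc4 differed by 0.39 ± 0.13 (SE, 4 arrays with a value in each group) and was not called (adjusted p = 0.0606), but was called under 7 of the alternatives: without db/db replicate 4 (adjusted p = 0.0358), with the Cy5 signal alone (0.0172), with loess within arrays (0.0359), with either filter on dim probes (0.0351 and 0.0246), with a trended and robust fit (0.0449) and with the replicate block (0.049). Rfc2 differed by -0.04 (95% interval -0.16 to 0.08). Of the single-strand binding protein RPA, Rpa1 differed by 0.24 ± 0.11 (SE, adjusted p = 0.122, but 0.046 with loess) and Rpa2 by 0.00 (95% interval -0.15 to 0.15). Neither gene that joins the pieces of the lagging strand was called. Fen1, the flap nuclease, differed by 0.11 ± 0.05 (SE, adjusted p = 0.0999). It was called without db/+ replicate 4 (adjusted p = 0.0475), with array weights (adjusted p = 0.0485) and with loess (adjusted p = 0.0185). The exact permutation test of each probe also called Fen1 (p = 0.0476, not adjusted). The probes of Lig1, the ligase of replication, differed by -0.30 ± 0.12 (dimmer, SE, 4 arrays with a value in each group, adjusted p = 0.105) and -0.19 ± 0.11 (brighter, SE, adjusted p = 0.225), and the dimmer probe was called without db/+ replicate 2 (adjusted p = 0.0296). That dimmer probe had a mean Cy3 signal of 0.064 units, where 1 rounding step is worth 0.21 on the log2 scale.

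Nucleotide supply showed opposite calls for the subunits of ribonucleotide reductase, the enzyme that turns ribonucleotides into the deoxy form. The brighter probe of Rrm2, the small subunit, whose level limits the enzyme in dividing cells, had log2 ratios of 0.77, 0.77, 0.73, 0.68 and 0.62 in db/db islets, against 0.30, 0.13, 0.05, 0.25 and -0.03 in db/+ islets. The lowest db/db array was above the highest db/+ array. The difference was 0.57 ± 0.07 (SE), 1.49-fold higher in db/db islets (adjusted p = 0.000162), and the Cy5 signal averaged 0.798 ± 0.049 units in db/db islets and 0.564 ± 0.062 units in db/+ islets (SD). Quantile normalization ended the call (adjusted p = 0.107). The dimmer Rrm2 probe had 0, 0, 0, 0 and 0.22 in db/db islets, against 0, -0.26, 0.32, 0 and 0 in db/+ islets, and was not called, at 0.03 ± 0.10 (SE, adjusted p = 0.836), with a mean Cy3 signal of 0.060 units and a rounding step worth 0.22 on the log2 scale. Rrm1, the large subunit, was between -0.58 and 0 on db/db arrays, against 0 to 0.25 on db/+ arrays. The groups met at 0, the value of db/db replicate 3. Its difference was -0.44 ± 0.12 (SE), 1.36-fold lower in db/db islets (adjusted p = 0.0194).

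Of the thymidine enzymes, Tk1, which salvages thymidine in S phase, was between 0 and 0.46 on db/db arrays, against -0.22 to 0 on db/+ arrays. The groups met at 0, and with a mean Cy3 signal of 0.076 units its ratios moved in rounding steps of 0.18. Its difference was 0.27 ± 0.09 (SE), 1.20-fold higher in db/db islets (adjusted p = 0.0385), and the call was lost on leaving out db/db replicate 1, 3, 4 or 5 or any 1 of the 5 db/+ arrays (adjusted p of 0.0556 to 0.086), after quantile normalization (0.129) and with the Cy5 signal alone (0.39). Tyms, the thymidylate synthase that makes the thymidine nucleotide afresh, had 0.45, 0.17, 0.28, 0 and 0.06 in db/db islets, against 0.32, 0.18, -0.14, -0.07 and -0.14 in db/+ islets, and was not called, at 0.16 ± 0.12 (SE, adjusted p = 0.324). Dut, which keeps uracil out of DNA, differed by -0.13 ± 0.09 (SE, adjusted p = 0.297, 5 db/db and 4 db/+ arrays with a value). Its mean Cy3 signal was 0.047 units, where 1 rounding step is worth 0.28 on the log2 scale.

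None of the 5 chromatin and methylation genes was called between db/db and db/+ islets by limma, and none had an unadjusted p under 0.05 apart from Uhrf1. Uhrf1, which guides DNA methylation to the new strand, had log2 ratios of 0.13, 0.26, 0.13, 0.13 and 0.45 in db/db islets, against -0.14, 0, -0.14, 0.29 and -0.15 in db/+ islets. The db/+ replicate 4 lay above 4 of the 5 db/db arrays. The difference was 0.24 ± 0.10 (SE, adjusted p = 0.0929), and without that array it was called (adjusted p = 0.013). Dnmt1, the methyltransferase that copies the methylation pattern, had 0.09, -0.16, -0.27, -0.10 and 0.08 in db/db islets, against -0.14, 0.01, -0.10, 0.24 and 0.17 in db/+ islets, and differed by -0.11 (95% interval -0.33 to 0.11). Ezh2, the methyltransferase of histone H3 that beta cells lose with age in mice, had 0.19, -0.09, 0.16, 0.04 and 0 in db/db islets, against 0.16, 0.04, -0.04, 0.20 and 0.08 in db/+ islets, and differed by -0.03 (95% interval -0.18 to 0.12). Both groups overlapped widely for these genes. The chromatin assembly factor subunits Chaf1a and Chaf1b differed by -0.18 (95% interval -0.42 to 0.07) and -0.05 (95% interval -0.26 to 0.16). Their probes were dim, with mean Cy3 signals of 0.068 and 0.054 units, where 1 rounding step is worth 0.20 and 0.25 on the log2 scale.

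Of the regulators that open S phase, the E2F activators were higher in db/db islets and the E-type cyclins were not called. The brighter E2f2 probe had log2 ratios of 1.83, 1.63, 1.73, 1.43 and 1.63 in db/db islets, against 0.13, 0.06, 0, -0.32 and -0.25 in db/+ islets. Every db/db array was more than 1 log2 unit above every db/+ array. The difference was 1.73 ± 0.11 (SE), 3.31-fold higher in db/db islets (adjusted p = 4.55e-06), the farthest from 0 of all replication probes, and the Cy5 signal averaged 0.70 ± 0.08 units in db/db islets and 0.198 ± 0.038 units in db/+ islets (SD). The dimmer E2f2 probe had 0, 0, 0, 0 and 0.32 in db/db islets, against 0.58, 0, 0, -0.58 and 0 in db/+ islets, and was not called, at 0.06 ± 0.18 (SE, adjusted p = 0.825). That probe had a mean Cy3 signal of 0.028 units, where 1 rounding step is worth 0.44 on the log2 scale, and 7 of its 10 ratios were 0. The accession given for the brighter probe was not among those the RefSeq table lists for E2f2, and its gene name is that of the array's design.

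E2f1, a related activator, had log2 ratios of 0.38, 0.46, 0.33, 0.33 and 0.28 in db/db islets, against 0.25, 0.12, -0.05, -0.23 and -0.21 in db/+ islets. All db/db arrays were above all db/+ arrays, by 0.03 between the nearest of them. The difference was 0.38 ± 0.09 (SE), 1.30-fold higher in db/db islets (adjusted p = 0.0123), and it was not called after quantile normalization (adjusted p = 0.268). Ccne1, the cyclin E that drives entry into S phase with CDK2, had 0.15, 0.13, 0.10, 0.02 and 0.03 in db/db islets, against 0.13, 0.22, 0.03, -0.12 and 0.03 in db/+ islets, and differed by 0.02 (95% interval -0.12 to 0.16). Ccne2, its close relative, differed by -0.10 (95% interval -0.28 to 0.08). Neither cyclin was called, and the sign of the Ccne1 difference turned under some ways of processing.

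Subunits of the same complex were then set against each other within each array, since an effect shared by all probes of an array cancels there. This comparison was added after the single values had been seen, and it uses the same arrays. For each of 34 pairs, the difference of both log2 ratios on an array was compared between db/db and db/+ arrays with a 2-sided exact permutation test, whose smallest possible p is 0.00794 with 5 arrays each. In all, 14 pairs passed after Benjamini-Hochberg adjustment over the 34 pairs. How many pairs of other probes would pass was not computed. Over all probes 33% were called in either direction, so such counts cannot be taken as particular to these complexes. In the helicase ring, 9 of 15 pairs passed. The log2 ratio of Mcm7 minus that of Mcm4 averaged 1.64 ± 0.30 in db/db islets and -0.16 ± 0.27 in db/+ islets (SD), and the groups differed by 1.81 ± 0.18 (SE, exact p = 0.00794, adjusted p = 0.0193). Mcm7 had every db/db array above every db/+ array and Mcm4 every one below. This pair therefore had to reach the smallest exact p, which adds nothing to the single values. The same held for Mcm7 with Mcm5. The log2 ratio of Mcm3 minus that of Mcm4 averaged 1.52 ± 0.16 in db/db islets and -0.02 ± 0.32 in db/+ islets (SD), with the same exact p. Pairs of Mcm2, Mcm5 and Mcm6 with each other did not pass, with differences of 0.13 to 0.39 (exact p of 0.151 to 0.325).

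The GINS pair and the reductase pair passed too. Gins1 minus the brighter Gins2 probe averaged 0.67 ± 0.13 in db/db islets and -0.12 ± 0.14 in db/+ islets (SD, exact p = 0.00794). The brighter Rrm2 probe minus Rrm1 averaged 1.08 ± 0.28 in db/db islets and 0.06 ± 0.15 in db/+ islets (SD, exact p = 0.00794). The outcome of both the GINS pair and the reductase pair was likewise fixed by the single values. Between polymerase alpha and primase 3 of 6 pairs passed, which were Pola1 with Prim1, Pola1 with Prim2 and Pola2 with Prim2. No pair of the origin recognition complex (3 pairs), the clamp loader (6), RPA (1) or the chromatin assembly factor (1) passed. The pairs that include Rfc4 had 4 arrays in each group, which allows no exact p below 0.0286. These pairs depended on the processing: Orc6 with Orc1 and with Orc2, Rfc2 with Rfc5, Rfc4 with Rfc3 and with Rfc5, and Rpa1 with Rpa2 passed with loess (adjusted p of 0.018 to 0.0469). All 3 Orc pairs (adjusted p = 0.015) and Rfc4 with Rfc3 and with Rfc5 (adjusted p = 0.0486) passed with an offset of 0.05 units, and Rfc2 with Rfc3 and with Rfc5 passed with the Cy5 signal alone (adjusted p of 0.0385 and 0.0245). Leaving out 1 array also made pairs pass, each at an adjusted p of 0.0317. All 3 Orc pairs passed without db/db replicate 3. Mcm7 with Mcm3, Pola2 with Prim1 and Rpa1 with Rpa2 passed without db/db replicate 1. Mcm3 with Mcm2, Mcm5 with Mcm4 and Pola1 with Pola2 passed without db/+ replicate 1. Mcm3 with Mcm2, Mcm5 with Mcm4 and Pola2 with Prim1 passed with loess too (adjusted p = 0.0469). These also passed with the offset (adjusted p of 0.015 to 0.0491), and Mcm5 with Mcm4 with the Cy5 signal alone (adjusted p = 0.0385). After quantile normalization Mcm3 with Mcm6, Pola1 with Prim1 and Pola1 with Prim2 no longer passed, and with the Cy5 signal alone Mcm7 with Mcm5, Pola1 with Prim2 and Pola2 with Prim2 no longer passed. A difference of this kind shows only that the log2 differences of both probes were unequal, and some passing pairs hold a probe that was not called itself, such as Mcm3 or Pola2.

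**Figure D3:**
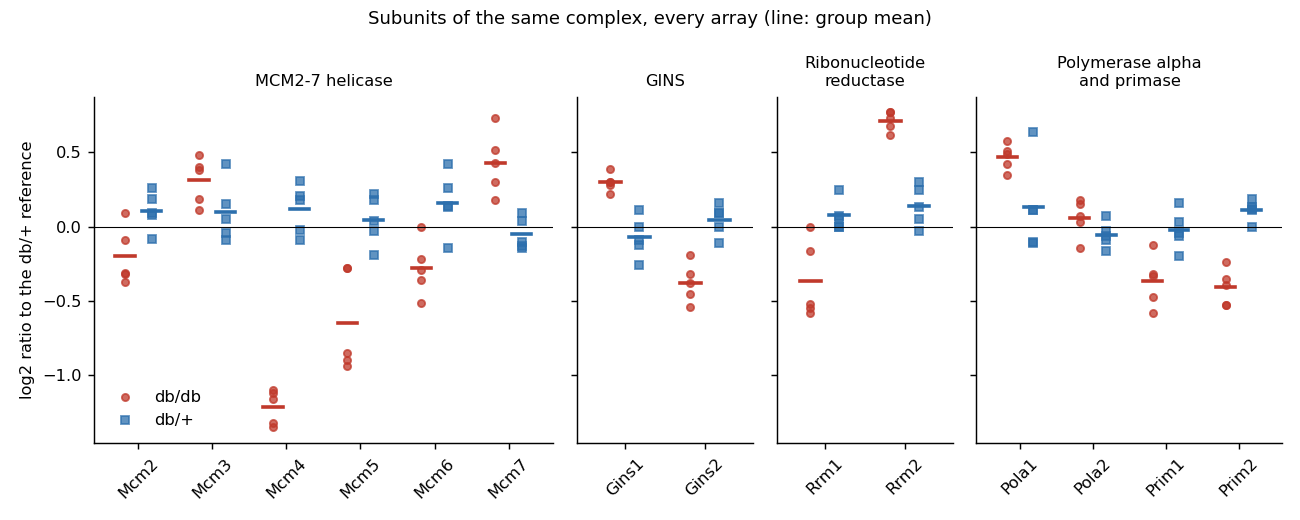
Log2 ratios of the subunits of 4 complexes on each array, with 1 point per array and a line at the group mean, db/db left of db/+. In db/db islets Mcm7 and Gins1 lie above 0 where Mcm4 and the brighter Gins2 probe lie below it, and in db/+ islets all of them lie near 0.

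The promoters of these genes were read from RefSeq (GRCm38.p6), as windows of 250 bases before and 50 after the start, to see which hold the E2F motif. The motif was searched as TTTGGCGC or TTTCGCGC on both strands. It was found in 13 of the 37 replication genes with a window (35.1%), against 251 of 27025 genes in the table (0.929%) and 200 of the 14692 genes with a tested probe (1.36%). By call in db/db islets, it was found in 2 of 7 genes called higher, 3 of 10 called lower and 8 of 20 not called. The stretches around the match of the 5 called genes, with those of Mcm3 and Cdt1 for genes not called, are shown on the gene's strand with the match in capitals. They stand for genes that were higher, lower and not called alike.
E2f2, chr4:136172303-136172323, plus strand: cggcatatagTTTGGCGCtaa
Mcm7, chr5:138171850-138171877, minus strand: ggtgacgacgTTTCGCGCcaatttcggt
Mcm5, chr8:75109346-75109373, plus strand: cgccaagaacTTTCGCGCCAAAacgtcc
Mcm6, chr1:128359798-128359825, minus strand: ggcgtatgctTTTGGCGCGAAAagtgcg
Rfc3, chr5:151651201-151651228, minus strand: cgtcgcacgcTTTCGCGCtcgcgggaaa
Mcm3, chr1:20820263-20820284, minus strand: cttgggaagtTTTGGCGCcaag
Cdt1, chr8:122568037-122568064, plus strand: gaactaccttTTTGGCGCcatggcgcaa
In Mcm5 and Mcm6 the capitals cover both motifs, which overlap there on opposite strands. A match is a stretch of letters and no measured binding, and the files analysed hold no binding data.

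The upstream 250 bases are printed for the called genes of smallest adjusted p in each direction with an entry in the table, E2f2 and Rrm2 (higher in db/db islets) and Orc6 and Pcna (lower in db/db islets). Capitals mark CCAAT or its complement ATTGG, searched on both strands after these sequences had been read.
E2f2, chr4:136172024-136172273, plus strand: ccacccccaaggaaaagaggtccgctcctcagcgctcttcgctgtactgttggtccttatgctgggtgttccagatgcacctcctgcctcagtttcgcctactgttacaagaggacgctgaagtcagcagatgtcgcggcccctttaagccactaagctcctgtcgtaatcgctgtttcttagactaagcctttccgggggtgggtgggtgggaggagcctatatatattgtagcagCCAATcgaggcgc
Rrm2, chr12:24708004-24708253, plus strand: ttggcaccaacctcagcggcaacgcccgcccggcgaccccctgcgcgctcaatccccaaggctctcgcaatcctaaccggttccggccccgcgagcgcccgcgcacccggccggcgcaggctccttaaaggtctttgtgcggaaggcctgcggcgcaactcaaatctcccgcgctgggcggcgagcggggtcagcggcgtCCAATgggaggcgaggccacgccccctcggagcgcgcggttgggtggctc
Orc6, chr8:85299382-85299631, plus strand: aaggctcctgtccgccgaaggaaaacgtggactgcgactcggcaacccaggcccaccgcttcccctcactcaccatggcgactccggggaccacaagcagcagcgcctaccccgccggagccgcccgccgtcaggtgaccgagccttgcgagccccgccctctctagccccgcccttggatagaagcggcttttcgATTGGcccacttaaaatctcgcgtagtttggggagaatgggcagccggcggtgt
Pcna, chr2:132253181-132253430, minus strand: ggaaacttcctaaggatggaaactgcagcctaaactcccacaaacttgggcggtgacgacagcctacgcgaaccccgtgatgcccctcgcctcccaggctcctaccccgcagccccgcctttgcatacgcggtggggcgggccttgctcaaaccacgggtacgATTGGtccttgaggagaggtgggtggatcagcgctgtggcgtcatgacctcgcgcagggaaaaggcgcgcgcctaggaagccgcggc
Each of the 4 holds 1 such match, whose first base lies 13, 50, 54 and 87 bases before the start in E2f2, Rrm2, Orc6 and Pcna. In the longer windows it was found in 23 of 37 replication genes (62.2%), against 11096 of 27025 genes in the table (41.1%). The printed stretches of genes that were higher in db/db islets had a GC content of 55.2% and 72.4%, and those of genes that were lower 65.6% and 64%.

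Among other genes of DNA replication more probes were higher than lower in db/db islets, and the difference between these lists was not tested. A list of 72 further factors (other origin, polymerase, loader, fork protection and nucleotide genes) had 67 on the array. Of their 76 tested probes 19 were higher in db/db islets (25%) and 11 lower (14.5%), against 15.9% and 17.1% of all probes. Brighter probes of the array were called more often in both directions, as given above, and this list was not matched to all probes for brightness. Their median log2 difference was 0.03, and the lead of higher probes narrowed after quantile normalization. Pold4, a small subunit of polymerase delta, was 1.67-fold higher (0.74). Pole3, of polymerase epsilon, was higher by 0.50. The chromatin remodeller Hells was higher by 0.40 at one probe, while its other probe was not called (-0.11, adjusted p = 0.412). The probes of Mcm9, an MCM relative that serves repair, disagreed: the brightest was 1.20-fold lower (-0.26, adjusted p = 0.043), a dimmer one 2.26-fold lower (-1.17, adjusted p = 6.41e-05) and the dimmest was not called (0.00). Orc3 was 1.61-fold lower (-0.69). Rnaseh2b, a subunit of the enzyme that removes ribonucleotides from DNA, and the deubiquitinase Usp37 were lower by -0.65 and -0.61. Apart from the uncalled probes of Hells and Mcm9, all of these passed limma's test over all probes. The called Hells probe and the Usp37 probe were dim, with a mean Cy3 signal of 0.078 units, where 1 rounding step is worth 0.17 on the log2 scale. For the Mcm9 probe that was 2.26-fold lower, the mean Cy3 signal was 0.105 units and 1 step is worth 0.13.

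Of the E2F and retinoblastoma regulators outside the 45 genes, 4 of 17 tested probes were higher in db/db islets (23.5%) and 2 lower (11.8%). Over all probes these shares were 15.9% and 17.1%, and no list was tested against them or matched to all probes for brightness. E2f8 (0.37) and the brighter probe of E2f6 (0.34, the dimmer one not called at -0.08), both repressors of the E2F family, the E2F partner Tfdp1 (0.23) and the RB relative Rbl1 (0.27) were higher. Rb1, the retinoblastoma protein gene (-0.44), and Cdkn1b, which codes for the CDK inhibitor p27 (-0.41), were lower. Of 22 probes of mitosis markers, 8 were higher in db/db islets (36.4%) and 1 lower (4.55%), beside the same 15.9% and 17.1% of all probes. Among those higher were Cdc20, an activator of the anaphase-promoting complex (1.72-fold, 0.78), the kinases Aurka (0.51) and Plk1 (0.20) and the kinesin Kif20a (0.32), while Mki67, which codes for the proliferation antigen Ki-67, was lower (-0.27, adjusted p = 0.0388).

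**Figure D4:**
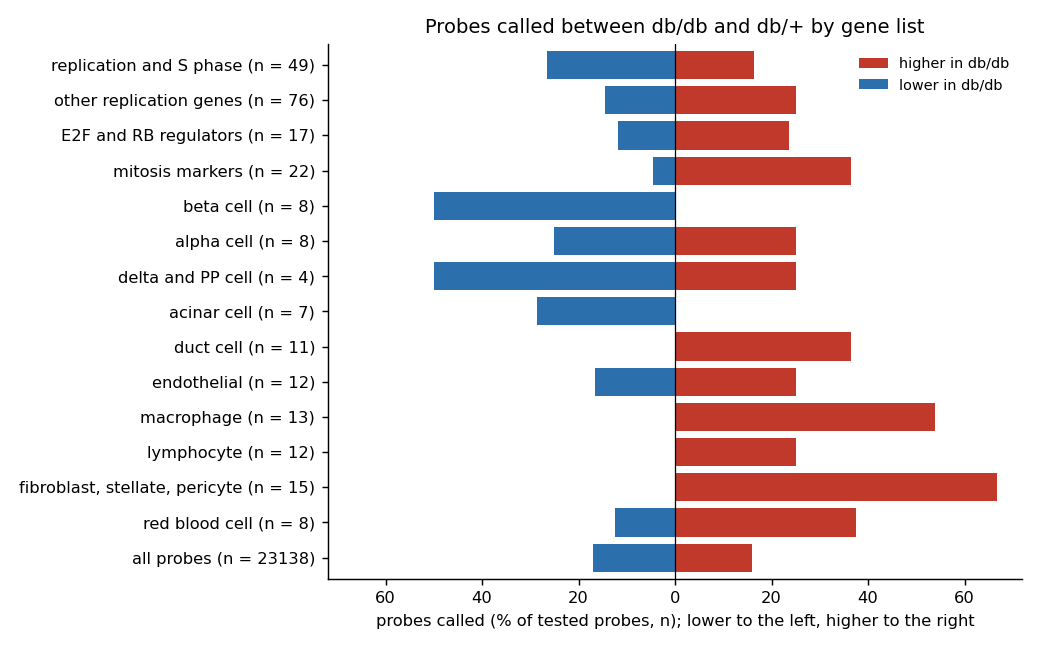
Share of tested probes called higher in db/db islets (right of 0) and lower (left of 0) for the replication and S phase probes, other cell cycle lists, cell type marker lists and all probes. The replication probes stand at 16.3% higher and 26.5% lower, and the fibroblast, stellate cell and pericyte list has the largest share of higher probes among those drawn.

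Markers of other cells of the islet extract were also compared between the groups, and their part in the replication results was not tested. Over all probes tested, 15.9% were called higher and 17.1% lower. No marker list was tested against these shares or matched to all probes for brightness. Of the fibroblast, stellate cell and pericyte markers, 10 of 15 probes were higher and none lower in db/db islets, and their summed Cy5 signal was 3.89 to 7.40 units on db/db arrays and 1.49 to 2.79 units on db/+ arrays. Of the macrophage markers, 7 of 13 were higher and none lower, with sums of 30.8 to 38.2 units in db/db islets and 19.5 to 31.4 units in db/+ islets. Of the duct markers, 4 of 11 were higher and none lower (25.9 to 32.2 units in db/db, 17.6 to 25.7 units in db/+ islets). Of the lymphocyte markers, 3 of 12 were higher and none lower. Their sum of 12.9 to 16.1 units in db/db islets lay inside the db/+ range of 7.89 to 19.7 units. Of the endothelial markers 3 of 12 were higher and 2 lower (19.6 to 25.6 units in db/db, 13.1 to 19.3 units in db/+ islets). Of the red blood cell markers 3 of 8 probes were higher and 1 lower.

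Markers of the endocrine and acinar cells moved differently, and their counts stand beside the same 15.9% higher and 17.1% lower over all probes. Of the 11 beta cell marker probes on the array 8 could be tested, and of these 4 were lower and none higher. For 4 marker genes on the array the mean signals of both channels were under 0.049 units, the array's lower quartile of Cy3. At least 1 of the lower probes was so dim. Its mean Cy3 signal was 0.045 units and its difference -0.36, where 1 rounding step is worth 0.29 on the log2 scale. The summed signal of the beta cell markers was 9.71 to 10.82 units in db/db islets and 15.98 to 18.73 units in db/+ islets. Most of that sum came from 1 marker, at 6.32 to 7.34 units in db/db islets and 11.45 to 14.03 units in db/+ islets. Of the alpha cell markers, 2 of 8 were higher and 2 lower, and of the delta and PP cell markers 1 of 4 was higher and 2 lower. Of the acinar markers, 2 of 7 were lower and none higher (18.6 to 42.7 units in db/db, 35.6 to 55.0 units in db/+ islets). No marker of any list was at 0 on these arrays, and beta cell markers were present in both groups, as the tissue label has it.

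**Figure D5:**
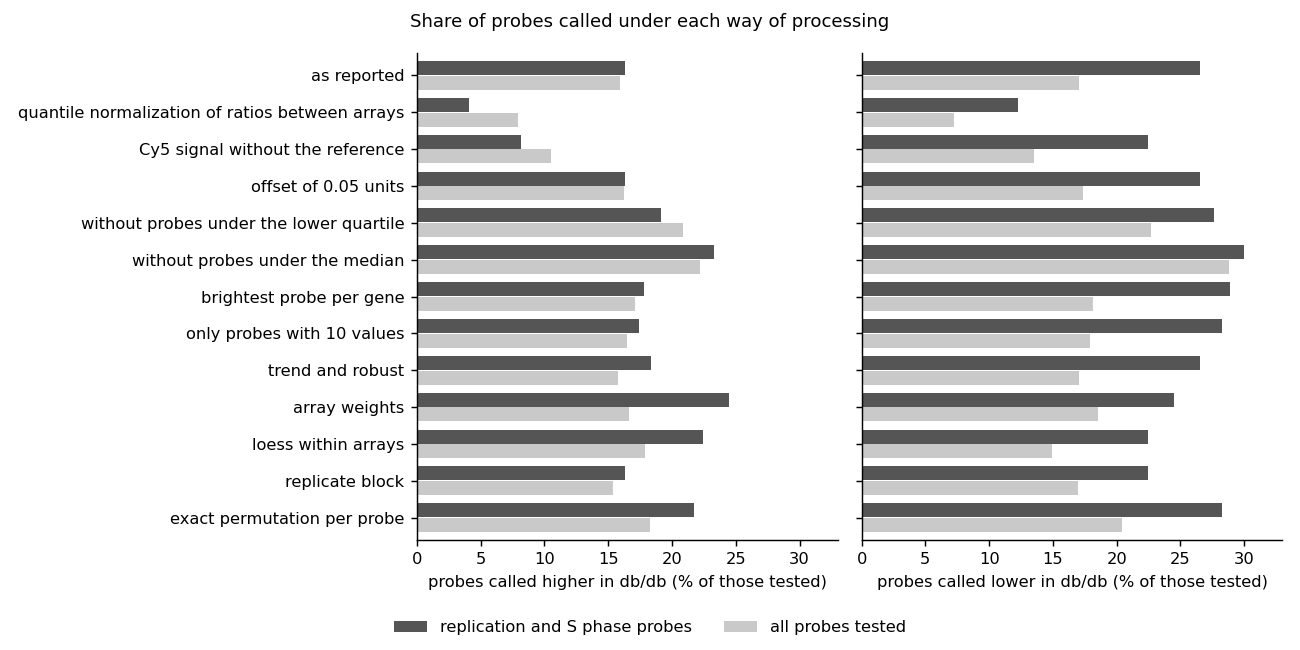
Share of probes called higher (left panel) and lower (right panel) in db/db islets under each way of processing, for the replication and S phase probes and for all probes tested. The share called lower is above that of all probes in each setting drawn, by the least where only probes of at least the median Cy3 signal are kept, and the share called higher changes side of the array's share between settings.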

How the data were processed

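RNA of 5 db/db and 5 db/+ islet samples was measured on 2-colour arrays. The submitters' processing notes name Agilent Feature Extraction 8.5.1.1. Per the file headers, the authors deposited the intensity of both channels (arbitrary units, mostly rounded to 0.01) and a p-value for each probe and array, by a method that is not stated. The deposited log10 ratios of Cy5 over Cy3 had a median of 0 on every array and were multiplied up to log2, without a pseudocount. How background and dyes were treated is not given in the sources used here. Per array, 22657 to 23365 probes had a value. The number of arrays limits the precision, and the rounding limits dim probes (13 of the 49 replication probes had a mean Cy3 signal under 0.1 units).

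Symbols were matched to RefSeq (GRCm38.p6) by current symbol for 18956 probes, accession for 623 and synonym for 1775, while 913 kept the file's own symbol and 1245 stayed unnamed. No genome build is named in the files. The 23138 probes with 3 or more values per group were fitted with limma 3.58.1 in R 4.3.3 (lmFit, eBayes, no covariate, 2-sided, Benjamini-Hochberg over all probes, threshold 0.05), and the code was tested on simulated data. All adjusted p-values of single probes are limma's. SE is the moderated standard error, and a fold is 2 to the power of the log2 difference.

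The genes, the other lists and the tests were chosen with earlier results of these data known. Values on every array are given for the 16 called probes of smallest adjusted p and for 12 genes chosen by name, and of the other cell cycle lists up to 4 called probes in each direction are named, apart from 1 that is not reported here. Cell type markers are given as counts and summed signals, without naming single probes as had been planned. The 22 alternatives left out each array in turn (10) or changed the scaling, the reference, the offset, the filter, the probe choice, the fit or the block (12). The alternatives for subunit pairs were chosen after the data were seen.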

Additional observations from a re-analysis of the deposited data

Results flagged for a closer look

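In 62 groups of 4 or 5 arrays, 8 held 1 array far from the others of its group by Dixon's criterion, where chance gives about 5% of groups. Among called probes, db/+ replicate 2 stood at 0.32 for Pcna, with the other db/+ arrays at 0.04 to 0.12. For Rrm1, db/+ replicate 4 stood at 0.25, the others at 0 to 0.07. For the dim probes Rfc5 and Tk1, db/+ replicate 4 stood at 0.22 and db/+ replicate 5 at -0.22, with the other db/+ arrays at 0. Among uncalled dim probes, db/db replicate 5 stood at 0.32 for E2f2, 0.22 for Rrm2 and 0.17 for Gins2, and db/+ replicate 1 at 0.22 for Gins2, with the others of each group at 0. In these 6 groups of dim probes the array apart was about 1 rounding step from the rest.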

How the results depend on the processing

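Over the 49 replication probes and 22 alternatives, called probes lost the call 51 times and uncalled probes of 9 genes gained one 22 times. Of the 668 values recomputed for the called probes and the genes chosen by name, 599 kept their direction and their side of the threshold and 16 turned their sign. Quantile normalization between arrays moved the counts most: 1836 probes were higher and 1667 lower in db/db islets, of the replication probes 2 and 6, of the further replication factors 5 and 4, and the median replication difference was -0.0578. It gives all arrays the same spread of ratios, which before that step was wider on db/db than on db/+ arrays. With the Cy5 signal alone, 2439 probes were higher (3122 lower), 4 replication probes were higher (11 lower) and 12 further factors were higher. With only probes of at least the median Cy3 signal the median replication difference was 0.0663. The split of higher and lower replication probes was 12 and 12 with array weights and 11 and 11 with loess within arrays. Centring the Cy3 channel on its median called 3 probes there. Of the subunit pairs, 23 passed with loess and 22 with an offset of 0.05 units. Leaving out 1 array gave 3237 to 3600 probes higher and 3408 to 3888 lower, 6 to 9 and 11 to 13 replication probes, 17 to 20 and 8 to 12 further factors, a median replication difference of -0.03 to 0.01, and 14 to 17 pairs. All values that turned their sign belonged to uncalled probes: Ccne1 (-0.0824 quantile, -0.0422 Cy5 alone, -0.00636 array weights), Cdt1 (-0.0839 quantile), Ezh2 (0.00262 array weights, 0.0157 loess), and the dimmer probes of Gins2 (0.00239 array weights, 0.0125 loess) and Rrm2 (-0.013 quantile). Leaving out 1 array also turned signs, over a range of -0.0222 to 0.0618 for Ccne1 and -0.0605 to 0.00968 for Ezh2, and for the dimmer probes of -0.0819 to 0.211 for E2f2, -0.036 to 0.11 for Rrm2 and -0.0445 to 0.034 for Gins2. Uhrf1 was called with array weights (adjusted p = 0.045). The cause of these changes was not tested. Same-numbered arrays correlated by 0.0306 to 0.205, and replicates 3 and 4 correlated best with their own number, so the numbers were not taken to pair the samples. With the replicate number as a block, 3549 probes were higher and 3919 lower, and of the replication probes 8 and 11, with Mcm2 (adjusted p = 0.0529), Pold1 (0.0936), Rfc5 (0.0552) and Tk1 (0.0506) no longer called and Mcm10 (0.0134) and Rfc4 (0.049) called in addition.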
